A study of Mus musculus with 2 samples.

Results

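The 251 autosomal peaks with the highest scores in the Flag-Hes5 peak list are described here, chosen as all peaks on chromosomes 1 to 19 with an authors' score above 1000. They made up 3.89% of the 6451 autosomal peaks and came from a list of 6505 peaks in all. The score chose them, so score, width and the other values read from the same peak calling are given as a description, without tests. Of the 251, 9 lay in 3 intervals that were set apart because mouse assemblies are known for satellite or ribosomal DNA-like sequence there, and 242 lay elsewhere.

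The study immunoprecipitated chromatin with an anti-Flag antibody from mesodermal derivatives of mouse embryonic stem cells of the AinV/Bry-GFP line and sequenced the DNA (ChIP-seq). On day 3.75 of differentiation, embryoid bodies were sorted for cells with green fluorescent protein at the Brachyury gene, which then spent 48 h in culture with doxycycline, when they expressed Flag-Hes5, or without it, when they served as the negative control. There was 1 library of each kind. The peak list belongs to the library with doxycycline, and the control library gave no values here. There is therefore no replicate spread, the read depth is unknown, and Flag-Hes5 signal cannot be told from background that the control would also show.

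Hes5 is a basic helix-loop-helix transcriptional repressor and an effector of Notch signalling. Proteins of the Hes family bind DNA as dimers and recruit Groucho/TLE corepressors, and they are known for holding progenitor cells back from differentiation, including in the nervous system. Brachyury marks early mesoderm, from which both heart and blood cells arise. Satellite DNA consists of short units repeated in tandem over long stretches, mostly around centromeres, and ribosomal DNA is a tandem array of genes for ribosomal RNA. Both are present in many more copies in a cell than in a genome assembly, so reads from many copies can be placed on the few copies that the assembly holds. Positions are given on mm9, the build named in the submitters' processing notes. Sequence and annotation of mm9 were not used here, so gene, exon, intron and repeat annotation of the peaks were not analysed here, no sequence is printed, and peaks are named by position.

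The 9 peaks of the set-apart intervals differed from the others in how they were packed. The interval on chromosome 2 held 3 peaks within 5.18 kb (chr2:98502353-98507528), the interval on chromosome 9 held 24 within 38.3 kb (chr9:2999972-3038316), and the interval on chromosome 17 held 2 within 5.90 kb (chr17:39979912-39985810). All 9 strong peaks there had another peak within 10 kb, and 4 had one within 1 kb. The shares were 19.0% and 12.8% for the 242 strong peaks elsewhere, and 22.9% and 14.9% for the 6200 other autosomal peaks. For 1 kb, 4 of 9 has an exact 95% interval of 13.7% to 78.8%, which includes 14.9%, so the difference in packing rests on 10 kb. Whether their sequence is repeated was not examined.

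On chromosome 2, both outer peaks stood at 3100, the highest score in the list. No score exceeds it and several peaks share it exactly, so it appears to be a ceiling of the scale: peaks at 3100 are not ranked among themselves, and their true scores may be higher. The peak at chr2:98506358-98507528 was 1171 bp wide and the peak at chr2:98502353-98503185 was 833 bp wide. Between them lay a narrow peak of 267 bp at chr2:98505152-98505418, whose score of 954 missed the threshold. On chromosome 17 the peaks almost touched, and together they covered 98.2% of the stretch they spanned. The peak at chr17:39979912-39984246 had a score of 3100 and a width of 4335 bp, and the peak beside it at chr17:39984355-39985810 scored 1748 over 1456 bp. Neither interval held any other peak.

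On chromosome 9, 5 of the 24 peaks were strong and 19 were not. The strong peaks stood in 2 places of the run. The first was chr9:2999972-3001819, with a score of 2959 over 1848 bp, and chr9:3002003-3002371 followed it at 1239 over 369 bp. The other 3 sat close together, with centres 22.6, 23.4 and 24.8 kb from that of the first. Of these, chr9:3023400-3023658 scored 1357 over only 259 bp, which made it narrower than any strong peak outside the set-apart intervals. The next, chr9:3023799-3024707, scored 1256 over 909 bp, and chr9:3025441-3026034 scored 1659 over 594 bp. The 19 weaker peaks were spread through the run, with scores from 93.8 to 675 and a median of 252, close to the median of 242 for all 6200 autosomal peaks with scores up to 1000. Peaks covered 26.7% of the run. By the look-up described further on, none of the 6 strong peaks of the set-apart intervals below 3100 matched a Poisson background of 1 to 8 whole reads. Elsewhere 58 of 237 did. Higher backgrounds were not tried. For the strong peaks of the intervals, 0 of 6 allows a share of up to 45.9% (exact 95% limit). No weaker peak of the intervals matched either: 1443 matched among the 6200 other autosomal peaks, and 1443 among the 6180 of them outside the intervals.

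**Figure D1:**
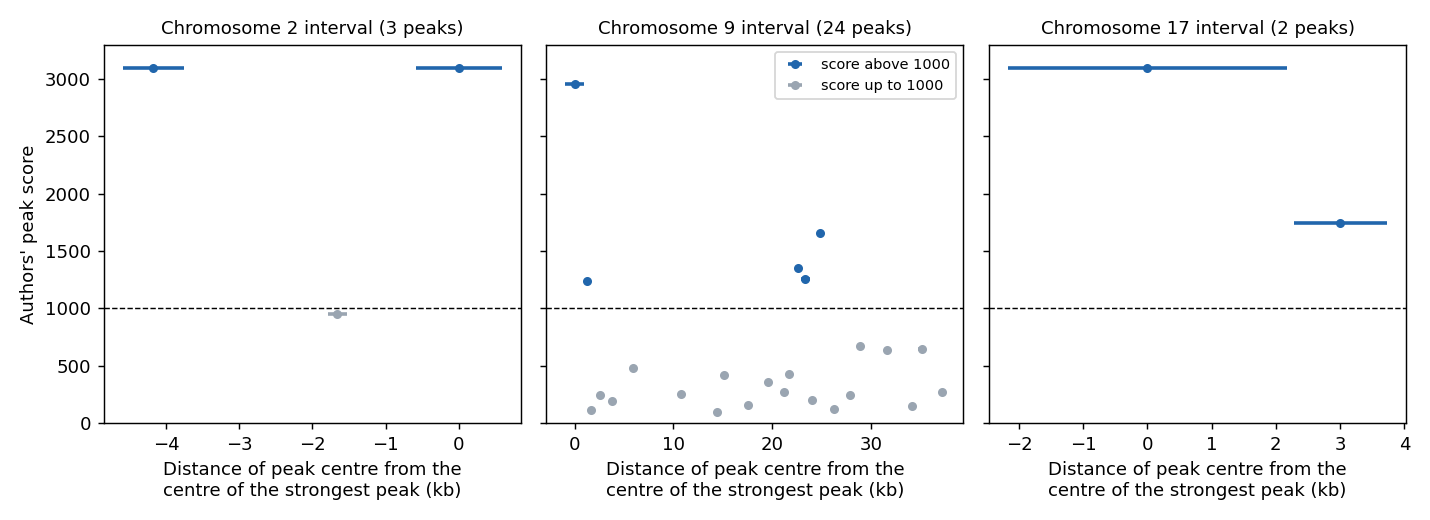
Peaks in the 3 set-apart intervals. Each point is a peak, placed by the distance of its centre from the strongest peak of the interval (kb) and by the authors' score, with a bar for its width; blue points are above the score of 1000 (dashed line). On chromosome 9 the 5 strong peaks stand among 19 weaker ones, whereas the chromosome 2 and chromosome 17 intervals hold 1 and 0 weaker peaks.

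Outside these intervals, the 242 strong peaks had a median score of 1230, with quartiles of 1093 and 1522. The threshold did not fall in a gap of the scores. The weakest strong peak was chr6:113646970-113647740 with a score of 1002, followed by 4 peaks that shared the score 1007.84, among them chr2:77118232-77119052 and chr17:57074522-57075348. Just below the threshold lay chr1:136311901-136312466 at 999.5, chr18:38578445-38579021 at 998.8 and chr1:33964486-33965066 at 996.4. Between 900 and 1000 there were 100 peaks, and between 1000 and 1100 there were 65, so the strong peaks are the upper end of a continuous range and not a separate class.

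The strong peaks were wide. Their median width was 814 bp (95% order-statistic interval 775 to 862), with quartiles of 666 and 1041 bp, against 404 bp (402 to 406) for the 6200 other autosomal peaks, with quartiles of 337 and 523 bp. A width over 1000 bp was found in 72 of the 242 strong peaks, or 29.8%, and in 67 of the others, or 1.08%. All 6 peaks from 1500 to 2000 bp wide were strong, as were 66 of the 133 peaks from 1000 to 1500 bp and 96 of the 574 from 700 to 1000 bp. Of the 2981 peaks of at most 400 bp, 7 were strong. The 242 strong peaks covered 209 kb, which was 7.01% of the sequence under autosomal peaks outside the set-apart intervals, although they were 3.77% of those peaks. Width and score are both set by the reads of the same library, so these values only describe the strong peaks.

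Peaks of higher score were wider up to a score of 2500, with no step at the threshold. Peaks with scores from 800 to 1000 had a median width of 716.5 bp and those from 1000 to 1200 one of 767.5 bp. The median was 830 bp from 1200 to 1500, 932 bp from 1500 to 2000 and 1036 bp from 2000 to 2500. Above 2500 it was 954.5 bp, in 10 peaks. Among the strong peaks, Spearman's rho of score and width was 0.21 (n = 242), against 0.48 among the 6180 others outside the set-apart intervals. The peaks of both sets share a library. Scores ran from 1002 to 3100 in the strong peaks and from 52.3 to 999.5 in the others. Why the values of rho differ was not tested.

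**Figure D2:**
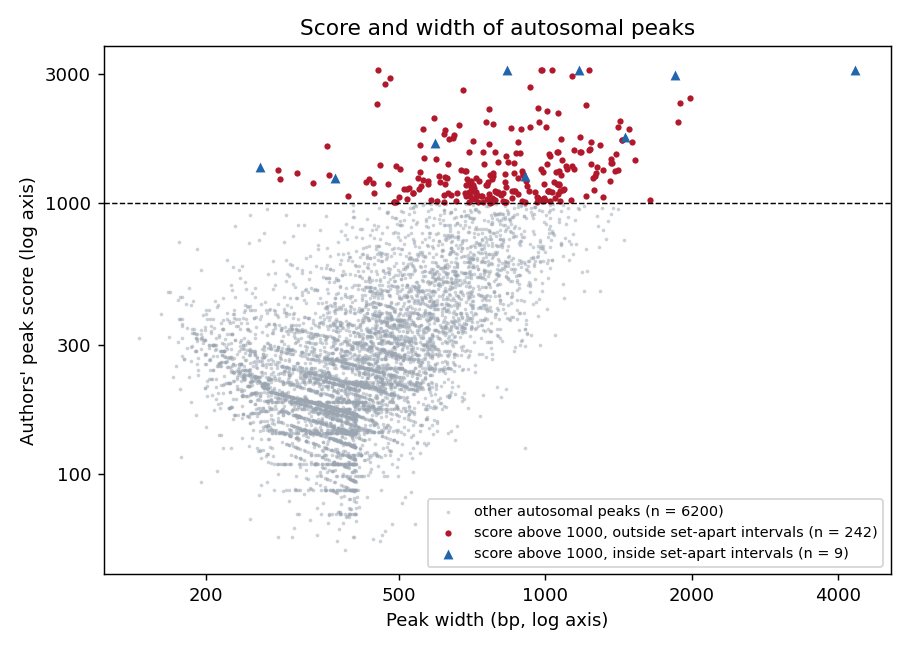
Authors' score against peak width (bp), both on log axes, for the autosomal peaks of the doxycycline library. Each point is a peak: grey, score up to 1000; red, score above 1000 outside the set-apart intervals; blue triangles, score above 1000 inside them. Red points have a median width of 814 bp and grey points of 404 bp, and 4 red points with scores above 2000 lie at widths under 500 bp.

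The widest strong peaks were chr4:46463584-46465569, with 1986 bp and a score of 2446, and chr12:77470050-77471939, with 1890 bp and a score of 2335. They were followed by chr7:134169320-134171198, with 1879 bp and a score of 1987. The next, chr4:8617599-8619238, was 1640 bp wide but scored only 1028, near the threshold. The fifth was chr2:174155120-174156647, with 1528 bp and a score of 1439. Great width thus went with scores from the bottom to the upper part of the range.

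The narrowest strong peaks also spanned a range of settings. The peak at chr4:73897652-73897933 had a score of 1323 over 282 bp and no other peak within 2.04 Mb. The peak at chr1:10030032-10030315 scored 1224 over 284 bp. A width of 308 bp was found at chr2:125072886-125073193, with a score of 1286, and one of 333 bp at chr5:17080294-17080626, with a score of 1186. The peak at chr12:33504978-33505332 scored 1620 over 355 bp. Both the chromosome 2 and the chromosome 12 peak had a weaker peak within 1 kb, whereas the chromosome 5 peak had none within 786 kb.

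Narrow peaks were also found at the very top. Of the 20 strong peaks with scores above 2000, 4 were narrower than 500 bp, and of the other 222 strong peaks 18 were. Among the 6200 other autosomal peaks, 4445 were, or 71.7%. Whether the counts among the strong peaks differ beyond counting error was not tested. The peak at chr9:35112764-35113215 reached 3100 over 452 bp. The peak at chr11:23206112-23206589 scored 2883 over 478 bp, with a peak of score 145 at 0.744 kb. The peak at chr16:11143918-11144384 scored 2749 over 467 bp, with a peak of score 70.9 at 9.49 kb. The peak at chr11:118109583-118110033 scored 2317 over 451 bp and had no other peak within 215 kb. The remaining 16 peaks above 2000 were from 589 to 1986 bp wide.

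The other peaks at the top score, outside the set-apart intervals, were broad and differed in their surroundings. The peak at chr3:30992928-30994154 was 1227 bp wide and had its nearest neighbour at 98.7 kb. At chr6:145198157-145199189 the nearest listed peak was itself strong: it was chr6:145694708-145695769, 497 kb away, with a score of 2150. The peak at chr7:134397122-134398107 lay in a stretch with 23 other peaks within 1 Mb, and the peak at chr6:86476371-86477348 had a neighbour of score 444 at 0.892 kb.

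Further peaks with scores above 2000 were spread over the chromosomes, and the 20 lay on 12 of them. The strongest peak of chromosome 1 was chr1:38185861-38186995 at 2936, and the strongest of chromosome 12 was chr12:16901593-16902270 at 2606. Chromosome 6 also carried chr6:140571910-140572840 at 2680. Those 3 differed in their nearest peak, which lay 265 kb, 0.551 kb and 69.0 kb away. The strongest peak of chromosome 19 was chr19:41556842-41558054 at 2293, that of chromosome 10 was chr10:45205481-45206446 at 2245, and that of chromosome 17 was chr17:35137858-35138622 at 2221. Also above 2000 were chr10:79861294-79862303 at 2183, chr9:30837925-30838513 at 2057 and chr4:106583478-106584902 at 2005.

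From rank 21 to rank 40 the scores ran from 1987 down to 1712, and this range holds the strongest peak of 5 more chromosomes. These were chr13:15554803-15555557 at 1987, chr18:67934419-67935083 at 1938 and chr14:115439503-115440505 at 1905. They also included chr5:66088806-66089737 at 1902 and chr8:72963206-72963766 at 1874. Of these 5, the peaks on chromosomes 13, 14 and 5 had a neighbour within 1 kb. Chromosomes 2 and 15 had no peak in the first 40: their strongest were chr2:72816755-72818260 at 1674 and chr15:102033817-102034695 at 1682.

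Several chromosomes had more than a single peak from rank 21 to 40. Chromosome 11 had chr11:57822115-57823526 at 1916 and chr11:69446264-69446909 at 1743, and chromosome 5 also had chr5:147605911-147606761 at 1889 and chr5:141717091-141718269 at 1746. Chromosome 7 had chr7:97591170-97592061 at 1880 besides the wide peak named above, and chromosome 10 had chr10:79229169-79229800 at 1725 and chr10:5958425-5959862 at 1712. The remaining peaks of these ranks followed. They were chr16:32643711-32644680 at 1986, chr9:20682348-20683129 at 1966 and chr3:21974898-21976386 at 1874. The last were chr14:31832166-31832786 at 1869, chr13:41315490-41316108 at 1800, chr12:52930245-52930894 at 1783 and chr4:11117831-11118908 at 1718.

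No autosome stood out in its share of strong peaks beyond counting error. Every autosome had some, from 4 of 209 peaks on chromosome 18 to 22 each of 531 on chromosome 2 and 438 on chromosome 6. The share of peaks that were strong ran from 1.91% on chromosome 18 (95% exact binomial interval 0.524% to 4.83%, counting error only) to 5.19% on chromosome 13 (2.71% to 8.90%). The interval of each of the 19 autosomes held the share over all of them, 3.77%. Chromosome 11, which carries 515 peaks, had 16 strong ones, or 3.11% (1.79% to 5.00%).

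**Figure D3:**
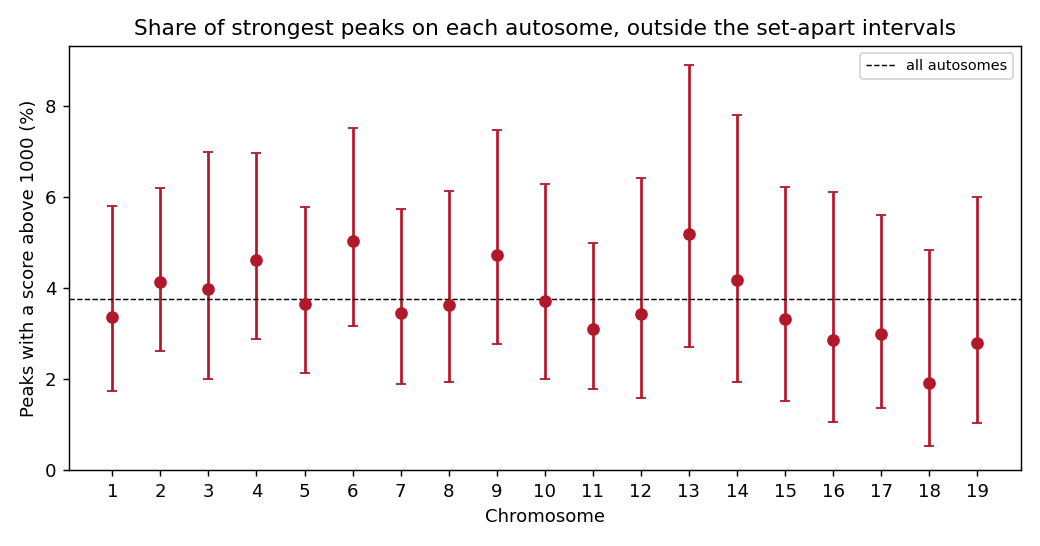
Percent of listed peaks with a score above 1000 on each autosome, outside the set-apart intervals. Points are the shares, bars their exact 95% binomial intervals (counting error only), and the dashed line is the share over all autosomes, 3.77%, which every bar crosses.

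The number of peaks in a stretch went with little difference in the share of strong ones. In 1 Mb windows with 1 to 4 peaks, 107 of 2481 peaks were strong, or 4.31% (3.55% to 5.19%). With 5 to 9 peaks per window the share was 3.28% (2.63% to 4.04%), and with 10 or more it was 3.71% (2.75% to 4.87%). These intervals overlap and count peaks as independent. Of the 1668 windows with any peak, 199 held a single strong peak, 18 held 2, 1 held 3 and 1 held 4.

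The window with 4 was on chromosome 10 from 79 to 80 Mb, where 36 peaks were listed. Its strong peaks were chr10:79861294-79862303 at 2183, chr10:79229169-79229800 at 1725, chr10:79166920-79167375 at 1383 and chr10:79727372-79728066 at 1012. The window with 3 was on chromosome 6 from 124 to 125 Mb, among 13 peaks. They were chr6:124867207-124868341 at 1365, chr6:124705869-124707083 at 1058 and chr6:124959176-124959774 at 1016. Of the 10 pairs of consecutive strong peaks within 200 kb, 4 lay in these windows.

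No strong peaks lay within 60 kb of each other outside the set-apart intervals. The closest pair was 62.3 kb apart, on chromosome 10 (chr10:79166920-79167375 and chr10:79229169-79229800). The second closest was the chromosome 6 pair of chr6:124867207-124868341 and chr6:124959176-124959774, 91.7 kb apart. No group of strong peaks within 10 kb therefore existed to be named. Of the 223 distances between consecutive strong peaks, 2 were within 100 kb, 10 within 200 kb and 40 within 1 Mb, and the median was 5.63 Mb. The longest distance was 40.1 Mb, on chromosome 8, between chr8:27229502-27230301 and chr8:67373136-67374155.

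The peaks next in line to a strong peak had scores like those next to any other peak. Of the 482 peaks directly before or after a strong peak along the chromosome, 16 were strong, or 3.32%, against 3.78% of those next to other peaks. The neighbours that were not strong had a median score of 242.3, against 241.8 for those next to other peaks. Another strong peak lay within 1 Mb of 72 of the 242, or 29.8% (24.1% to 35.9%), and of 1838 of the 6200 others, or 29.6% (28.5% to 30.8%). Within 100 kb, it did so for 4 of the 242, or 1.65% (0.452% to 4.18%), and for 296 of the 6200, or 4.77% (4.26% to 5.33%). Of those 296, 50 had the strong peak as their nearest neighbour within 10 kb. With the set-apart intervals left out on both sides, it was 276 of 6180, or 4.47% (3.96% to 5.01%), for the others. Of those 276, 46 had the strong peak as their nearest neighbour within 10 kb. Each pair of strong peaks is counted from both sides.

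Strong peaks were not more crowded by other peaks either. The median distance from a strong peak to the nearest listed peak was 78.7 kb (95% order-statistic interval 68.5 to 93.2), against 58.2 kb (55.1 to 60.4) for the others. For this median, the intervals of the strong peaks and of the others did not overlap. Peaks with scores from 800 to 1000 lay between, at 68.0 kb (53.9 to 86.2). Within 10 kb, 46 of 242 strong peaks had a neighbour, or 19.0% (14.3% to 24.5%), against 1419 of 6200, or 22.9% (21.8% to 24.0%). Within 1 kb the shares were 12.8% (8.87% to 17.7%) and 14.9% (14.0% to 15.8%), and within 100 kb 59.9% (53.4% to 66.1%) and 64.8% (63.6% to 66.0%). At each of these distances the share was lower for the strong peaks, and the interval of the strong peaks included the share of the others. Neighbouring peaks are not independent, so these intervals are narrower than the uncertainty, and the wider strong peaks cannot have a centre as close to them as narrow peaks can.

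The share with a near neighbour showed no steady course with score. It was 19 of 112 peaks from 1000 to 1200, 14 of 67 from 1200 to 1500, 9 of 43 from 1500 to 2000, 0 of 10 from 2000 to 2500 and 4 of 10 above 2500. By rank, it was 4 of the first 15 outside the set-apart intervals, 4 of the first 20, 7 of the next 40 and 14 of the next 60. Among the last 122 it was 21. Even 0 of 10 leaves room for 30.8% (exact 95% limit), so these small groups could not be told apart.

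**Figure D4:**
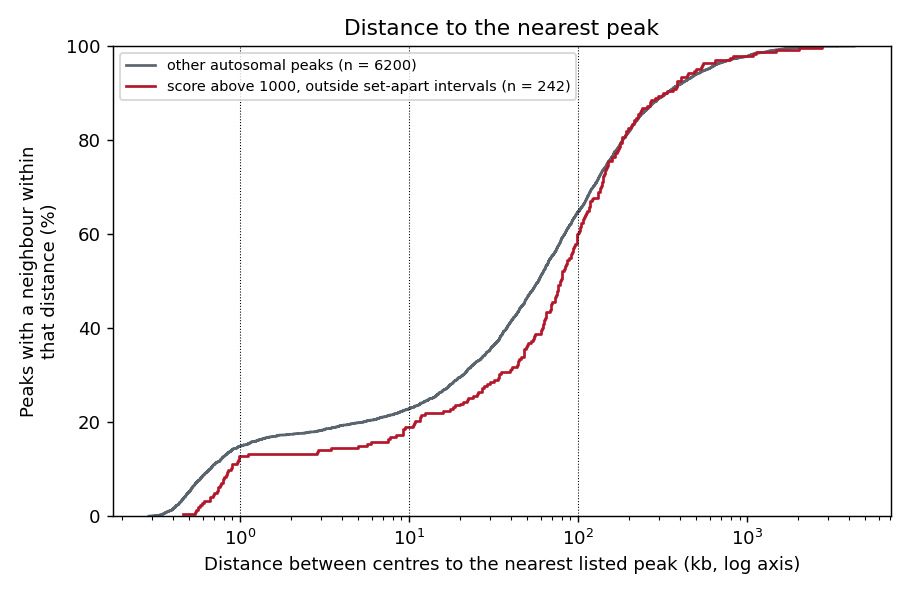
Cumulative share of peaks (percent) by the distance from their centre to that of the nearest listed peak (kb, log axis), for the 242 strong peaks outside the set-apart intervals (red) and the 6200 other autosomal peaks (grey). Dotted lines mark 1, 10 and 100 kb, where the red line stands at 12.8%, 19.0% and 59.9% and the grey line at 14.9%, 22.9% and 64.8%.

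The close neighbours of strong peaks had scores like those of other peaks. Of the 46 neighbours within 10 kb, the median score was 220 and the highest 683, against a median of 242 for all other autosomal peaks. None of the 46 was strong, where 3.77% of all peaks outside the set-apart intervals were. Their scores were a median of 16.9% of the strong peak's score, from 2.58% to 61.7%. The neighbour was the narrower of the pair in 43 of 46. Both follow in large part from choosing the strong peaks by score and are read as no trait of theirs. It lay on the side of lower coordinates in 20 and of higher coordinates in 26.

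In 31 of the 46, the centres were within 1 kb. The edges of these pairs were a median of 120 bp apart, from 1 to 396 bp, and in 12 they were at most 100 bp apart. The smallest edge distance was beside chr6:72848728-72849993, a strong peak of 1254 with a neighbour of 414. The most unequal pair was at chr12:16901593-16902270, where a peak of 109 stood beside a score of 2606. The most equal was at chr15:38447973-38448685, where a peak of 683 stood beside 1106. At chr5:119009766-119010208, with a score of 1092, the neighbour of 448 was the wider peak, with 626 bp against 443 bp. This was the single pair within 1 kb of that kind. The 31 strong peaks had a median width of 788 bp, against 819 bp for the other 211. Of the 242, 8 had 2 or more peaks within 10 kb, among them chr14:115439503-115440505 and chr19:4397080-4397641. That was 3.31% (1.44% to 6.41%), against 303 of the 6200 others, or 4.89%, which this interval includes.

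**Figure D5:**
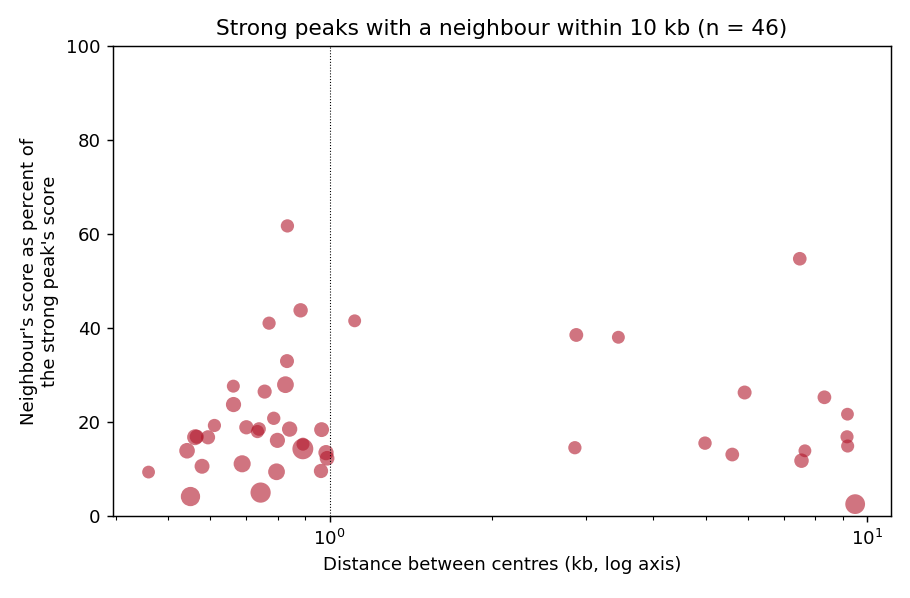
The 46 strong peaks with a neighbour within 10 kb. The x axis is the distance between centres (kb, log axis, dotted line at 1 kb), the y axis is the neighbour's score as a percent of the strong peak's, and larger points have higher scores; the points lie between 2.58% and 61.7%, and 31 lie within 1 kb.

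The most crowded strong peaks over 100 kb were not the strongest. The largest number, 8 other peaks, was found around chr17:34161100-34161993, which scored 1017. There were 7 around chr6:124959176-124959774 and 7 around chr10:79166920-79167375. There were 6 around each of 5 further strong peaks, which were chr10:79229169-79229800, chr19:4397080-4397641, chr6:124867207-124868341, chr11:120494092-120494852 and chr8:72963206-72963766. The median number of other peaks within 100 kb was 1 for strong peaks and 1 for the others, and within 1 Mb it was 8 and 9.

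At the other end, 5 strong peaks had no other peak within 1 Mb, or 2.07% (0.674% to 4.76%), against 138 of 6200, or 2.23%. The most isolated was chr3:21974898-21976386, a broad peak with a score of 1874 and no other peak within 2.76 Mb. It was followed by the narrow peak at chr4:73897652-73897933, with 2.04 Mb. The others were chr3:119485521-119486372 at 1109, with 1.48 Mb, chr4:13670182-13670963 at 1036, with 1.12 Mb, and chr10:98376607-98378005 at 1514, with 1.08 Mb.

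Read numbers were inferred from some of the scores, and no reads were counted. The peak names carry the prefix of MACS, a caller that compares the reads in a peak with a Poisson background, and each score was compared with -10 times the log10 of Poisson tail probabilities, P(X > k), for whole read numbers k. Peaks at the ceiling of 3100 were left out, since their scores may be cut off. Of the 237 strong peaks outside the set-apart intervals and below 3100, 58 came within 0.006 of such a value for some background mean from 1 to 8 reads, or 24.5% (19.1% to 30.5%), against 23.3% of the 6200 others. Backgrounds shifted by 0.1 to 0.9 of a read matched 0.844% of the strong peaks on average. For the 58, k ran from 93 to 194 reads, and its median was 121 (quartiles 107 and 135). For 1440 other peaks with a single solution, the median was 34 reads (quartiles 24 and 48). The background was a median of 5 reads for the strong peaks and 3 for the others, and the ratio of the 2 numbers had medians of 25.8 and 10.3. These numbers follow from the score that chose the peaks and hold only where a whole-number background applies.

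For the solved strong peaks, the read numbers given here are those inferred from the score. The highest read number, 194 on a background of 5, was found for chr19:41556842-41558054, and chr10:45205481-45206446 had 191 on 5. The narrow peak at chr11:118109583-118110033 had 156 reads on a background of 2, the highest ratio, of 78. The lowest ratio, of 16, was 128 reads on 8 at chr3:129762994-129763958, with a score of 1046. A read number of 107 on a background of 5 gives the score of 1007.84 that 4 peaks shared, and 100 reads on 4 gives the score of 1008.86 that another 4 shared, over widths of 619 to 829 bp. In all, 43 of the 242 strong peaks shared their score with another, in 17 groups. The 5 peaks at 3100 are among these groups, but they tie at the apparent ceiling of the score and no read number was solved for them. For the ties at 1321.36, 1091.42 and 1032.83, below the ceiling, no read number was solved either. Ties were not counted among the other autosomal peaks.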

How the data were processed

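The labels describe 2 single-end ChIP-seq libraries, with and without doxycycline, grouped by their titles. The deposited peak list of the doxycycline library was used, which gives position, name and the authors' score, 1 per peak. The submitters' processing notes name Bowtie 1.0, HOMER and mm9 but no roles. Which caller settings applied, and whether the control was used, is not given in the sources used here. Positions are printed 1-based.

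Peaks were named by fixed rules on score, width, chromosome, neighbours and the threshold. Distances are between centres, over all autosomal peaks listed. Comparisons are with the 6200 other autosomal peaks, unless the set-apart intervals are said to be left out. Shares have exact binomial and medians order-statistic intervals, at 95%, for counting error only. Peaks of 1 library are not replicates, so no test was run. The peaks and rules were chosen with earlier results of these data known. The planned gene start, motif and gene list parts were not run, because the gene tables at hand are for GRCm38. The code was tested on simulated data. Python 3.11.15, numpy 2.4.6, pandas 2.3.3, scipy 1.17.1 and matplotlib 3.10.9 were used.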

Additional observations from a re-analysis of the deposited data

How the results depend on the processing

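Of 17 alternatives tried, 8 left their result within 1.5 times (counts) or within its 95% interval (medians and shares), and 9 did not. The number of strong peaks was 462 at a score threshold of 800 and 69 at 1500, by construction. It was 247 when peaks were merged whose edges, not centres, lay within 1 kb, and 242 without the set-apart intervals. The median width was 774.5 bp at 800 and 970 bp at 1500, by the relation of width to score. It was 874 bp with merging, which joins peaks and so widens them, against 420 bp for the others merged in the same way. The share with a neighbour was 12.8% within 1 kb and 59.9% within 100 kb, by construction. With peaks merged by that edge rule, which removes the nearest neighbours, the share was 6.20% within 10 kb, against 7.40% for the others. The median distance to the next peak was then 93.7 kb, against 79.6 kb. No paired analysis was possible because there is a single library per condition. Gene start and motif alternatives were not run for want of mm9 sequence and annotation. Peaks below the caller's own limit cannot be judged, as the depth is unknown.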
